A study of Mus musculus with 9 samples.

Results

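Regnase-1 and the tristetraprolin family are RNA-binding proteins with CCCH zinc fingers that shorten the life of inflammatory messenger RNAs. The data on them consist of 4 genes, Zc3h12a (Regnase-1), Zfp36 (tristetraprolin), Zfp36l1 and Zfp36l2, taken by symbol from the platform's annotation, out of 12394 genes with a probe set of their own. They had 7 of the 22690 probe sets of the array: 1 each for Zc3h12a and Zfp36, 2 for Zfp36l1 and 3 for Zfp36l2. All 7 reached log2 = 6 on at least 1 array, the limit used for testing, as did 16712 probe sets in all. The cells were peritoneal macrophages of mice injected with thioglycollate, an irritant broth that recruits macrophages into the peritoneal cavity. They came from MyD88 KO mice, TRIF KO mice and wild-type mice. MyD88 and TRIF are the adaptors through which Toll-like receptor 4 signals when it meets lipopolysaccharide (LPS) of bacteria. For each genotype there was an unstimulated culture (0 h) and cultures given LPS at 100 ng/ml, harvested after 1 h and 4 h, which made 9 groups with 1 Affymetrix array each. The knockouts are named by gene only, and neither the genetic background nor the age, the sex or the number of mice behind an array is given in the sources used here.

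Regnase-1 is an endoribonuclease that cleaves stem-loops in the tails of transcripts such as Il6 and Il12b, and mice without it develop severe inflammation. Tristetraprolin and its relatives Zfp36l1 and Zfp36l2 bind AU-rich elements in the tails of transcripts, Tnf being the classic case, and recruit the enzymes that remove the poly(A) tail. Both kinds of protein are known as brakes on macrophage cytokines, and both are held inactive or removed by kinases that LPS activates, so that the messenger RNA level does not give the level of active protein.

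The 250 bases before the transcription start of 3 of the 4 genes are shown because these members differed in their response to LPS, described after the sequences. They are RefSeq sequences of the assembly GRCm38.p6, written 5′ to 3′ on the strand of the gene. Capitals mark matches to the EGR and CArG motifs and to a loose NF-kB pattern. The windows are chr4:125127882-125128131 for Zc3h12a, chr7:28379229-28379478 for Zfp36 and chr12:80113014-80113263 for Zfp36l1, all on the minus strand.
Zc3h12a: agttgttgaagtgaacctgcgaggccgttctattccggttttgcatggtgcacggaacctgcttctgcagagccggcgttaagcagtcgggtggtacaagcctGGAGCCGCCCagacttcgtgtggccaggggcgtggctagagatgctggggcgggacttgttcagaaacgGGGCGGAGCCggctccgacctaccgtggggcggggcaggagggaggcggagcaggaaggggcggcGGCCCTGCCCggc
Zfp36: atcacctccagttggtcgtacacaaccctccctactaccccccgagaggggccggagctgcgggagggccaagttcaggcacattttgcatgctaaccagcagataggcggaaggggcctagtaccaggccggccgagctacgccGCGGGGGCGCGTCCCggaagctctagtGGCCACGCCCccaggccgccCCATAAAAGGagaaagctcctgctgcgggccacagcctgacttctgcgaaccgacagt
Zfp36l1: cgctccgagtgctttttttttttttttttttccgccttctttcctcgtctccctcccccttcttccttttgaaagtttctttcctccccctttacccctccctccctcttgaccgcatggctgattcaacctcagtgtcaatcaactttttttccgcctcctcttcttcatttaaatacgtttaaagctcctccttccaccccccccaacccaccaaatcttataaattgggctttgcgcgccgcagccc
The windows of Zc3h12a and Zfp36 held 66.4% and 64.8% G and C, and that of Zfp36l1 held 48.4%. The pattern GGGNNNNNCC is a loose form of the NF-kB motif that takes any base at N, so a match need not be such a motif. Searched on both strands as were the others, it matched 3 times each in Zc3h12a and Zfp36 and 0 times in Zfp36l1. Such a match is common, since 45.8% of 32851 RefSeq promoter windows of this length held at least 1. In Zfp36 a match to the EGR motif GCGNGGGCG, which 4.7% of windows hold, lay 105 to 97 bases before the start. It overlapped a pair of matches to the loose NF-kB pattern that overlap each other. Zfp36 also had a CArG box, the motif of serum response factor, 58 to 49 bases before the start, which 1.5% of windows hold. Zc3h12a had 1 GC box (GGGGCGGGG, in 10.4% of windows), and Zfp36l1 had 1 AP-1 motif (TGANTCA, in 6.7%) and 1 TATA motif (TATAAA, in 12.4%). The CRE motif TGACGTCA, in 1.5% of windows, and the interferon-stimulated response element, in 3.0%, had 0 matches in these 3 windows. A match is a stretch of letters and was not tested as a binding site.

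The arrays were alike in their overall values, with medians of 7.01 to 7.07 and correlations between arrays of 0.97 to 0.996 across the tested probe sets. The 10 macrophage markers averaged 10.78 to 10.90 (log2) in MyD88 KO cells, 10.83 to 10.97 in TRIF KO cells and 10.71 to 10.84 in wild-type cells, and 9 of them, including Cd68, Csf1r and Adgre1, reached log2 = 6, with Cd163 below it. Of the other marker lists, those of B cells and fibroblasts moved most with genotype, while the neutrophil list averaged between 7.08 and 7.24 on all arrays. The 7 B cell markers on the array averaged 7.47 to 7.56 in MyD88 KO, 7.38 to 7.44 in TRIF KO and 7.60 to 7.83 in wild type, and the 6 fibroblast markers averaged 6.83 to 6.92 in MyD88 KO, 6.72 to 6.88 in TRIF KO and 6.39 to 6.45 in wild type. Single fibroblast markers differed in this, as Col3a1 ranged from 5.1 to 6.86 over the arrays and Lum from 5.18 to 5.39. The part of these cell types in the differences between genotypes was not tested. The Myd88 probe set read 9.30, 9.19 and 9.34 at 0, 1 and 4 h in MyD88 KO cells, 9.56, 9.54 and 9.96 in TRIF KO cells and 9.57, 9.58 and 10.002 in wild-type cells. Its position with respect to the deletion is unknown here, so these values may be no check of the knockout. For the gene of TRIF, Ticam1, no probe set with 1 symbol was found.

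Zc3h12a, the Regnase-1 gene, was higher under LPS in TRIF KO and wild-type macrophages and moved by at most 0.12 in MyD88 KO macrophages. Its probe set 1427348_at read 6.24, 6.27 and 6.35 (log2) at 0, 1 and 4 h in MyD88 KO cells, 6.61, 7.50 and 7.46 in TRIF KO cells, and 6.49, 7.78 and 7.39 in wild-type cells. All MyD88 KO arrays lay below every other array, and the 4 stimulated arrays of the other genotypes lay above all 5 remaining arrays. The MyD88 KO values were near log2 = 6, the limit used for testing. In the order of the 9 levels, 1 of the 8 gaps between neighbours exceeded the residual SD of 0.333 around the additive fit, and it was the gap of 0.785 between unstimulated TRIF KO and wild type at 4 h. For this and the other members the residual SD takes in responses that differ between genotypes, so it does not measure noise alone. On the log2 scale the difference between 1 h and 0 h was 0.03 in MyD88 KO, 0.89 in TRIF KO and 1.29 in wild type, or 1.02-fold, 1.86-fold and 2.44-fold. Between 4 h and 0 h it was 0.12 in MyD88 KO, 0.85 in TRIF KO and 0.90 in wild type. The 1 h difference in wild type ranked 24 of 16712 probe sets from the highest. It was at least 2-fold (a log2 difference of 1), as were 0.185% of tested probe sets at 1 h in wild type.

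Set against wild type at each time, the MyD88 KO level of Zc3h12a differed by -0.26 at 0 h, -1.51 at 1 h and -1.04 at 4 h. The last 2 differences were at least 2-fold lower, which held for 0.233% of tested probe sets at 1 h and 0.533% at 4 h. The induction in MyD88 KO was 1.26 below that in wild type at 1 h (ranking 13 of 16712 from the lowest) and 0.78 below it at 4 h. An induction at least 1 lower was seen in 0.114% of probe sets at 1 h and 0.305% at 4 h. The 4 h difference of Zc3h12a did not reach 1, and 0.6% of probe sets were at or below it. The TRIF KO level differed from that of wild type by 0.12, -0.28 and 0.07 at the 3 times. These differences rest on 1 array per group and have no replicate check. With the times as replicates of a genotype, MyD88 KO differed from wild type by -0.94 ± 0.171 (SE) in the limma fit, with an adjusted p (Benjamini-Hochberg) of 0.00767 and a lower value at 3 of 3 times, where 6.55% of tested probe sets passed in either direction and 2.68% were lower. MyD88 KO was also lower than TRIF KO, with a difference of -0.90 ± 0.171 (adjusted p = 0.018, 3 of 3 times), where 1.33% of probe sets were lower. For TRIF KO against wild type the difference was -0.03, with a 95% confidence interval of -0.407 to 0.341 (adjusted p = 0.967), which does not show that they were alike. Leaving out the wild-type 1 h array took the difference of MyD88 KO from wild type to -0.73 (adjusted p = 0.0561), and the difference from TRIF KO lost its call without the MyD88 KO array at 1 h or 4 h or any of the 3 TRIF KO arrays (adjusted p between 0.058 and 0.123).

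Across the genotypes, Zc3h12a was higher by 0.62 ± 0.171 (SE) at 4 h of LPS (limma, adjusted p = 0.0384, higher in 3 of 3 genotypes), where 10.5% of tested probe sets passed in either direction. At 1 h the estimate was 0.74 ± 0.171 and missed the threshold (adjusted p = 0.221), where 0.221% of probe sets passed. Without the MyD88 KO arrays the 1 h estimate was 1.09 (adjusted p = 0.000101). It also passed without the MyD88 KO array at 0 h (1.04, adjusted p = 0.000896) or 1 h (0.96, adjusted p = 0.0381). The 4 h call was lost on leaving out the wild-type array at 0 h or 4 h or any 1 of the 3 TRIF KO arrays, with estimates of 0.42 to 0.62 and adjusted p between 0.0639 and 0.189.

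**Figure D1:**
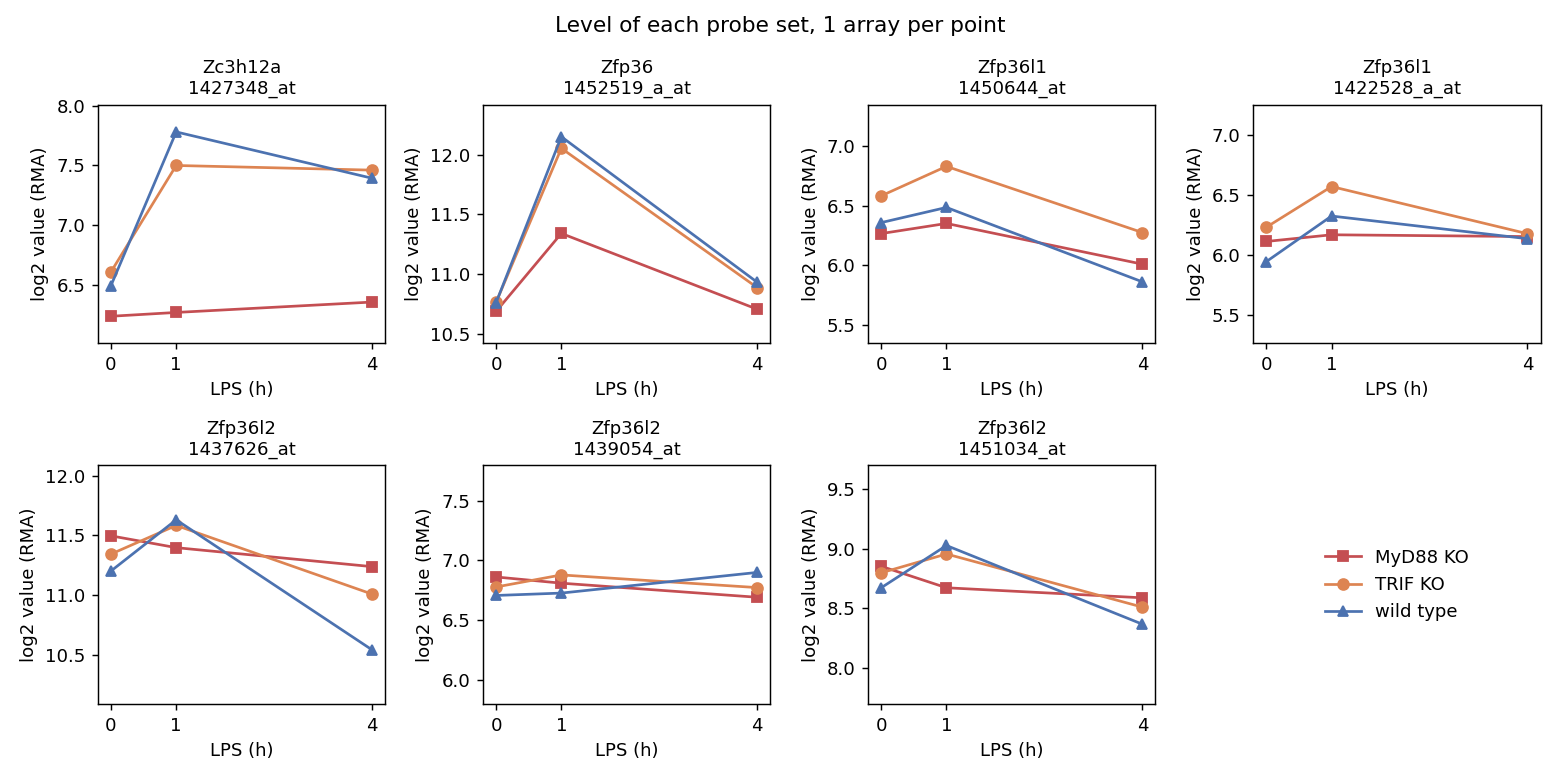
Level of each of the 7 probe sets (log2, vertical axis, each panel spanning 2 units) against hours of LPS (horizontal axis), with 1 array per point and 1 line per genotype. Zc3h12a stayed between 6.24 and 6.35 in MyD88 KO cells and reached 7.50 in TRIF KO and 7.78 in wild type at 1 h, and Zfp36 peaked at 1 h in all 3 genotypes.

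Zfp36, the tristetraprolin gene, had a short peak at 1 h in every genotype, lower in MyD88 KO. Its probe set 1452519_a_at read 10.69, 11.34 and 10.71 (log2) at 0, 1 and 4 h in MyD88 KO cells, 10.76, 12.05 and 10.89 in TRIF KO cells, and 10.76, 12.15 and 10.93 in wild-type cells. The 3 arrays at 1 h lay above all others, and the 3 genotypes at 0 h lay between 10.69 and 10.76. In the order of the 9 levels, 2 of the 8 gaps exceeded the residual SD of 0.212, below and above the MyD88 KO array at 1 h. The difference between 1 h and 0 h was 0.65 in MyD88 KO, 1.29 in TRIF KO and 1.39 in wild type. The differences in TRIF KO and wild type were at least 2-fold, which held for 0.0718% of probe sets in MyD88 KO, 0.12% in TRIF KO and 0.185% in wild type. The difference in MyD88 KO was less than 2-fold, and 0.22% of probe sets were at or above it. By 4 h the level was 0.02, 0.12 and 0.17 above the unstimulated one in MyD88 KO, TRIF KO and wild type. The level at 4 h minus that at 1 h was -0.64 in MyD88 KO, -1.17 in TRIF KO and -1.22 in wild type. A difference of -1 or lower was seen in 0.0239%, 0.0718% and 0.401% of probe sets in the same genotypes. The fall in MyD88 KO did not reach -1, and 0.19% of probe sets were at or below it.

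Across genotypes, Zfp36 was higher by 1.11 ± 0.118 (SE) at 1 h (limma, adjusted p = 0.00179, higher in 3 of 3 genotypes, place 9 of 16712 by p-value), and it was the member past the threshold at 1 h, where 0.221% of probe sets passed. Without the wild-type 1 h array the estimate was 0.99 (adjusted p = 0.056). At 4 h the estimate was 0.10 (adjusted p = 0.679), with a 95% confidence interval of -0.154 to 0.364. MyD88 KO differed from wild type by -0.07, -0.81 and -0.23 at 0, 1 and 4 h, and across times by -0.37 ± 0.118 (adjusted p = 0.0972, lower at 3 of 3 times), which missed the threshold. The difference passed without the unstimulated MyD88 KO array (-0.51, adjusted p = 0.0261) and with the arrays at 1 and 4 h alone (-0.52, adjusted p = 0.0446). TRIF KO differed from wild type by 0.00, -0.10 and -0.05 at the 3 times, and across times by -0.05 (95% confidence interval -0.306 to 0.213). For MyD88 KO against TRIF KO the difference was -0.32 (adjusted p = 0.289).

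**Figure D2:**
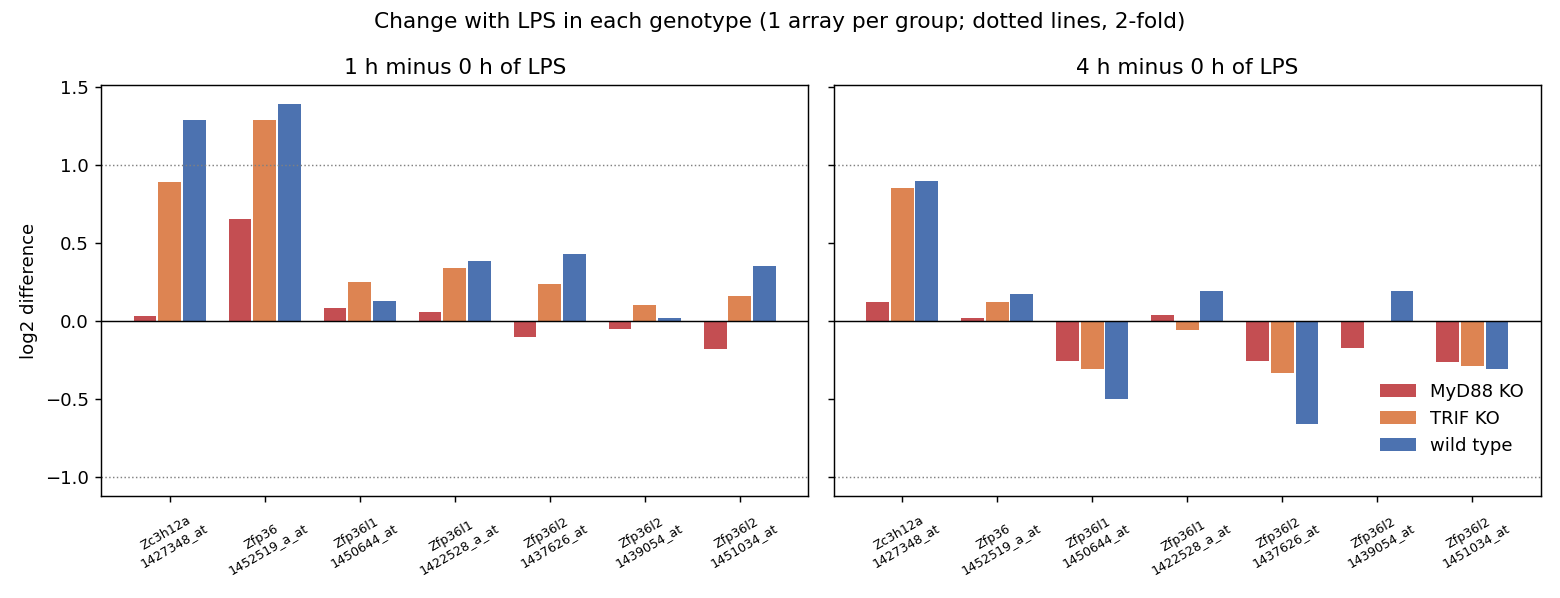
Log2 difference from the unstimulated array of the same genotype (vertical axis, bars from 0) for the 7 probe sets at 1 h (left) and 4 h (right) of LPS, with 1 array per group and dotted lines at 2-fold. The bars of Zc3h12a are 0.03 in MyD88 KO, 0.89 in TRIF KO and 1.29 in wild type at 1 h, and those of Zfp36 are between 0.02 and 0.17 at 4 h.

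Zfp36l1, a relative of tristetraprolin known from lymphocyte development, was lower at 4 h of LPS on 1 of its 2 probe sets. Its probe set 1450644_at read 6.27, 6.35 and 6.01 (log2) at 0, 1 and 4 h in MyD88 KO cells, 6.58, 6.83 and 6.28 in TRIF KO cells, and 6.36, 6.49 and 5.86 in wild-type cells. In each genotype the 4 h array was the lowest of the 3, and at each time the TRIF KO array was the highest of the 3. The change at 4 h was -0.26 in MyD88 KO, -0.31 in TRIF KO and -0.50 in wild type. Across genotypes it fell by 0.35 ± 0.073 (SE; difference -0.35, limma, adjusted p = 0.0095, lower in 3 of 3 genotypes), where 5.83% of probe sets were lower at 4 h. Without the wild-type 4 h array the estimate was -0.29 (adjusted p = 0.0713). The other probe set, 1422528_a_at, did not show this fall. It read 6.11, 6.17 and 6.15 in MyD88 KO cells, 6.23, 6.57 and 6.18 in TRIF KO cells, and 5.94, 6.33 and 6.13 in wild type, and its 4 h estimate was 0.06 (adjusted p = 0.742). The 2 probe sets correlated at r = 0.647 over the 9 arrays, as a description. Both lay near log2 = 6, the limit used for testing. Below it were 1450644_at in wild type at 4 h (5.86) and 1422528_a_at in unstimulated wild type (5.94).

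Between genotypes, Zfp36l1 was lower in MyD88 KO than in TRIF KO by a difference of -0.35 ± 0.073 on 1450644_at (limma, adjusted p = 0.0293, lower at 3 of 3 times), where 1.33% of probe sets were lower. That call was lost without any 1 of the 3 TRIF KO arrays, the MyD88 KO array at 0 h or 1 h or the wild-type 1 h array, with adjusted p between 0.0538 and 0.245, and over all 9 arrays left out the estimate was -0.418 to -0.295. TRIF KO against wild type gave 0.33 ± 0.073 (adjusted p = 0.0539, higher at 3 of 3 times), which missed the threshold by little and passed with 1 probe set per gene (adjusted p = 0.0424). It also passed without the wild-type array at 0 h (0.37, adjusted p = 0.0412) or the MyD88 KO array at 0 h or 4 h (adjusted p = 0.045 and 0.0428). The other probe set gave -0.18 (adjusted p = 0.437) for MyD88 KO against TRIF KO and 0.19 (adjusted p = 0.369) for TRIF KO against wild type. MyD88 KO and wild type differed by -0.03 on 1450644_at, with a 95% confidence interval of -0.186 to 0.134.

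Zfp36l2, the other relative of tristetraprolin, had 3 probe sets, of which 2 were lower at 4 h than at 1 h in every genotype. Its probe set 1437626_at, with the highest mean, read 11.50, 11.40 and 11.24 (log2) at 0, 1 and 4 h in MyD88 KO cells, 11.34, 11.58 and 11.01 in TRIF KO cells, and 11.20, 11.63 and 10.54 in wild-type cells. The 4 h arrays of TRIF KO and wild type were the lowest of the 9, and the gap of 0.467 between them was the one that exceeded the residual SD of 0.236. The level at 4 h minus that at 1 h was -0.16 in MyD88 KO, -0.58 in TRIF KO and -1.09 in wild type. At 4 h against 0 h the estimate across genotypes was -0.42 ± 0.128 (SE; limma, adjusted p = 0.0627, lower in 3 of 3 genotypes), which missed the threshold over all probe sets and passed with 1 probe set per gene (adjusted p = 0.048). It also passed without the wild-type array at 1 h (adjusted p = 0.0333), the MyD88 KO array at 1 h (0.0215) or the MyD88 KO array at 4 h (0.012). At 1 h the difference from 0 h was -0.10 in MyD88 KO, 0.24 in TRIF KO and 0.43 in wild type, and the estimate across genotypes was 0.19 (adjusted p = 0.907).

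The second probe set of Zfp36l2, 1451034_at, followed the first at r = 0.93 over the 9 arrays. It read 8.85, 8.67 and 8.59 in MyD88 KO cells, 8.80, 8.96 and 8.51 in TRIF KO cells, and 8.67, 9.03 and 8.37 in wild type, with a 4 h estimate of -0.29 (adjusted p = 0.0955) that passed without the MyD88 KO 1 h array (adjusted p = 0.0279). The third, 1439054_at, ranged over 0.208 in all, with 6.86, 6.81 and 6.69 in MyD88 KO cells, 6.78, 6.88 and 6.77 in TRIF KO cells, and 6.71, 6.73 and 6.90 in wild type, and correlated with the first at r = -0.212. No comparison of genotypes passed the test for a probe set of Zfp36l2. The estimates on 1437626_at were 0.25 for MyD88 KO against wild type (95% confidence interval -0.028 to 0.534) and 0.19 for TRIF KO against wild type (-0.093 to 0.469).

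Over the 7 probe sets, 1 was higher and 0 lower at 1 h, and 1 was higher (Zc3h12a) and 1 lower (Zfp36l1) at 4 h, where 4.71% of all tested probe sets were higher and 5.83% lower. MyD88 KO against wild type gave 1 lower, MyD88 KO against TRIF KO gave 2 lower, and TRIF KO against wild type gave 0 by limma after adjustment, with 2 at an unadjusted p under 0.05. The shares of all tested probe sets past the threshold in either direction were 0.221% at 1 h, 10.5% at 4 h, 6.55% for MyD88 KO against wild type, 2.06% for MyD88 KO against TRIF KO and 1.49% for TRIF KO against wild type. The median of the 7 estimates was 0.19 at 1 h, beside -0.012 over all probe sets tested, and 0.006 at 4 h, beside -0.012. The 2 comparisons with wild type share its arrays. Among the 4 genes, each with its highest-mean probe set, 3 inductions were at least 2-fold, all at 1 h, with Zc3h12a in wild type and Zfp36 in TRIF KO and wild type. No member reached 2-fold at 4 h, where 0.461% of probe sets did so upward in MyD88 KO, 0.389% in TRIF KO and 1.23% in wild type.

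**Figure D3:**
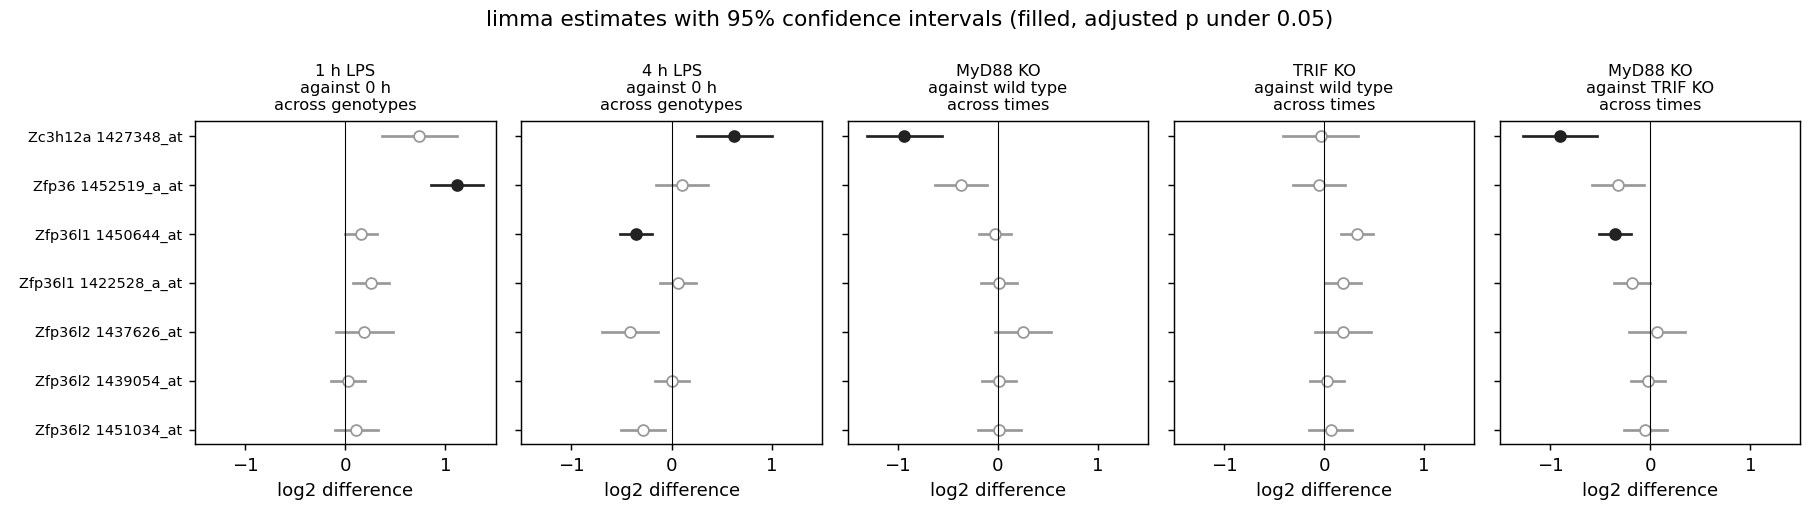
Estimates of the additive limma fit (log2 difference, horizontal axis) with 95% confidence intervals for the 7 probe sets in 5 comparisons, filled where the adjusted p was under 0.05. Zfp36 is the filled point at 1 h (1.11), Zc3h12a (0.62) and Zfp36l1 1450644_at (-0.35) are those at 4 h, Zc3h12a (-0.94) is the one for MyD88 KO against wild type, and none is filled for TRIF KO against wild type.

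The genes whose levels went most like those of each member over the 9 arrays were taken from 364 genes that ranged over at least 1 (log2), by Pearson's r as a description. The 9 arrays share genotypes and times, so they are not independent. Closest to Zc3h12a were Nfkbiz, an inducible cofactor of NF-kB (r = 0.965), Tnf, the cytokine (0.955), Socs3, a brake on cytokine signalling (0.955), Tnfaip3, the ubiquitin-editing enzyme A20 (0.955), and Map3k8, a kinase of the ERK pathway (0.939). Closest to Zfp36 were Dusp1 and Dusp2, phosphatases of MAP kinases (0.974 and 0.963), Btg2, an antiproliferative protein (0.941), and the immediate early factors Egr1 (0.932) and Fos (0.872). The median r over the 364 genes was 0.14 for Zc3h12a and 0.00 for Zfp36. The lists of Zc3h12a and Zfp36 shared no gene, and the 2 members correlated with each other at r = 0.65.

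For Zfp36l1 the closest were Clec2i, a C-type lectin (0.915), Apobec1, an RNA-editing cytidine deaminase (0.912), Daglb, a diacylglycerol lipase (0.896), Ctdsp2, a phosphatase (0.887), and Lyl1, a transcription factor of blood cells (0.846). For Zfp36l2 they were Sipa1l2 (0.971), Fbxw7, the substrate receptor of a ubiquitin ligase (0.969), Klhl24 (0.961), Nbr1, an autophagy receptor (0.957), and Naip5, a sensor of bacterial flagellin (0.956). Ranked by Spearman's correlation, 13 of the 20 genes stayed among the closest 5 of their member.

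**Figure D4:**
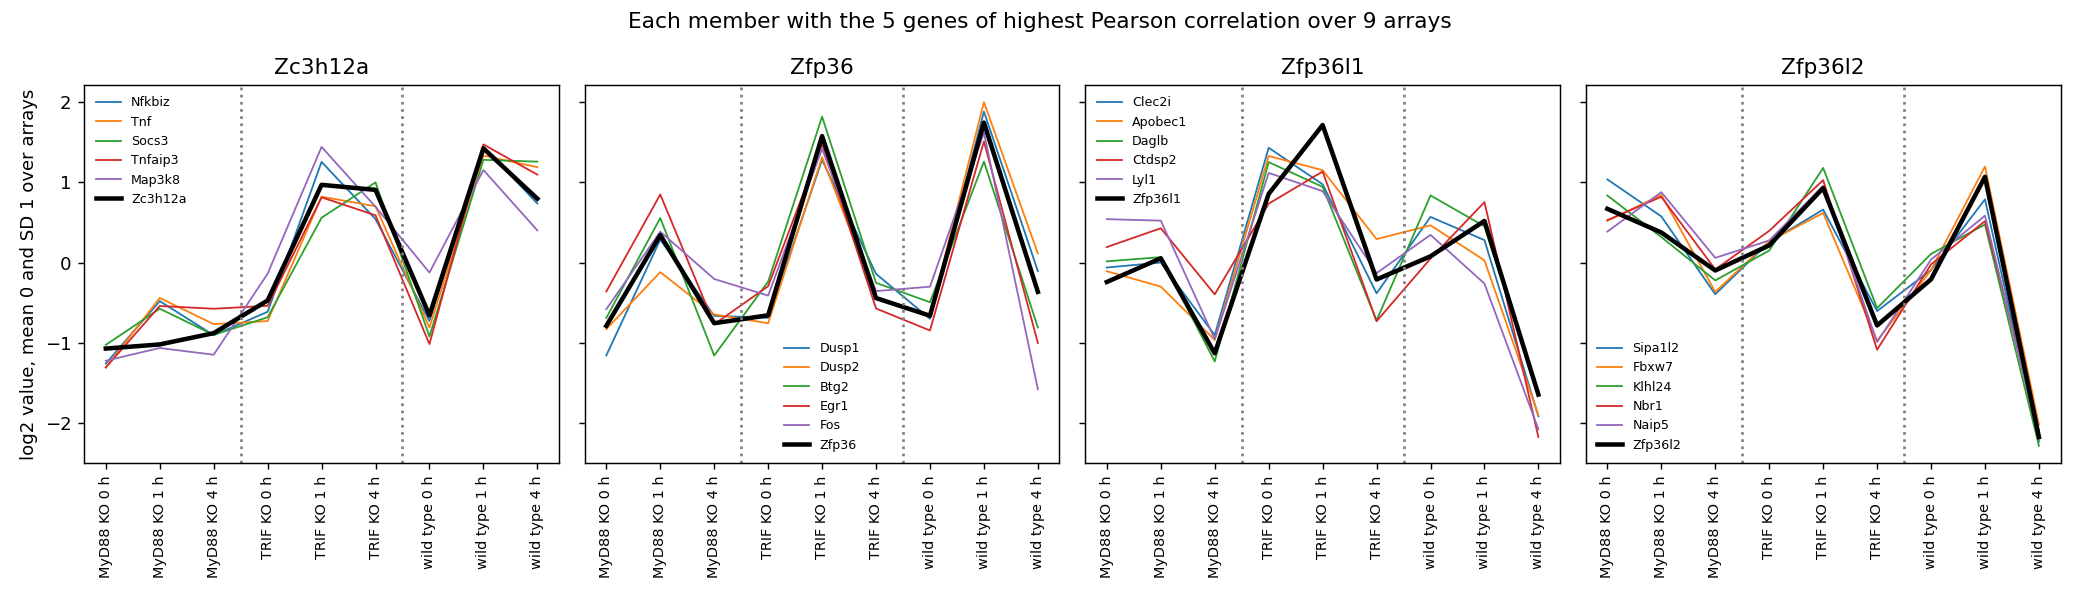
Log2 values scaled to mean 0 and SD 1 over the 9 arrays (vertical axis) for each member (black) and its 5 closest genes (colours), with arrays on the horizontal axis and dotted lines between genotypes. The genes around Zc3h12a stay lower on all MyD88 KO arrays than on the stimulated arrays of the other genotypes. At 1 h in MyD88 KO, Nfkbiz (1.39), Tnf (1.26), Tnfaip3 (0.41) and Socs3 (0.38) rise more than Map3k8 (0.07) and Zc3h12a (0.03). The genes around Zfp36 peak at 1 h in each genotype.

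Other CCCH proteins and the machinery of messenger RNA decay changed in few members. Over the 10029 genes tested at 1 probe set each, the shares past the threshold were 0.259% higher at 1 h, and 4.38% higher and 6.44% lower at 4 h. They were 4.09% higher and 2.48% lower for MyD88 KO against wild type, 1.04% higher and 0.379% lower for TRIF KO against wild type, and 0.828% higher and 1.24% lower for MyD88 KO against TRIF KO. Of 17 listed relatives of Regnase-1 and CCCH proteins, 10 were tested, and at 4 h Zc3h18, a nuclear RNA adaptor (0.24, limma, adjusted p = 0.0426), and N4bp1, an RNA-cleaving protein with the same kind of nuclease domain as Regnase-1 (0.32, adjusted p = 0.0371), rose while Mbnl1, a splicing regulator, fell by 0.32 (difference -0.32, adjusted p = 0.0358). In the other 4 comparisons limma called 0, with at most 1 at an unadjusted p under 0.05 in each. Zc3h7a, a CCCH protein, ranged over 0.419 in the 9 arrays, and Rc3h2 (Roquin-2), which represses transcripts through stem-loops, ranged over 0.384. Of 9 other AU-rich element binding proteins tested, Hnrnpd (AUF1) was higher at 4 h (0.32, adjusted p = 0.042), while Elavl1 (HuR), which stabilises such transcripts, gave 0.15 (adjusted p = 0.237), and the other 4 comparisons had 0 calls and 0 at an unadjusted p under 0.05. In that list Celf1 ranged over 0.436 and Hnrnpa2b1 over 0.403. Of 20 deadenylation and decapping genes tested, Btg2, a cofactor of deadenylation, was higher at 1 h (0.77 ± 0.075 SE, adjusted p = 0.00103), with 8.80, 9.36 and 8.58 at 0, 1 and 4 h in MyD88 KO cells, 9.003, 9.94 and 8.996 in TRIF KO cells, and 8.89, 9.68 and 8.74 in wild type. Its relative Btg1 was higher at 4 h (0.49, adjusted p = 0.00436) and the deadenylase Cnot6l was lower (-0.34, adjusted p = 0.0286), and Btg2 was lower in MyD88 KO than in TRIF KO (-0.40, adjusted p = 0.0182). Tob1, an adaptor of deadenylation, ranged over 0.92, with its lowest level, 5.72, in wild type at 4 h. For the 2 comparisons with wild type in this list limma called 0, with 3 (MyD88 KO) and 5 (TRIF KO) at an unadjusted p under 0.05. Of 13 exosome and nonsense-mediated decay genes limma called 0 in every comparison, with 1 or 2 at an unadjusted p under 0.05 in each, and the median difference at 4 h was 0.039, beside -0.016 over all genes tested. The exosome subunits Exosc9 and Exosc1 ranged over 0.478 and 0.419, and the nonsense-mediated decay genes Smg6 and Upf1 over 0.476 and 0.338. The 12 reference transcripts tested gave 0 calls, with at most 4 at an unadjusted p under 0.05 in a comparison, and medians of -0.034 at 1 h and -0.004 at 4 h. Among them Polr2a ranged over 0.655, Pgk1 over 0.392, Sdha over 0.363 and Gusb over 0.329. Of these calls, those of Btg2 at 1 h and Btg1 at 4 h held on leaving out each array in turn, and the others were lost without at least 4 of the 9 arrays, each left out alone. Without a genotype term the calls of Btg2 at 1 h and Btg1 were lost too.

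Genes of proteins that act on Regnase-1 or together with it were followed next. IKK kinases, reached through IRAK1, phosphorylate Regnase-1 for degradation, and the protease MALT1 with BCL10 cleaves it in T cells. TANK with USP10 takes part in the removal of ubiquitin, which need not be from Regnase-1 itself. Of 10 such genes tested, 3 rose at 4 h, where 4.38% of all genes tested did. Tank gave 0.57 ± 0.095 (SE, limma, adjusted p = 0.00291), Bcl10 0.35 (adjusted p = 0.0194) and Tbk1 0.26 (adjusted p = 0.0216), while Ikbkg gave 0.18 (adjusted p = 0.109). Tank read 7.43, 7.57 and 8.04 at 0, 1 and 4 h in MyD88 KO cells, 7.70, 7.74 and 7.97 in TRIF KO cells, and 7.66, 7.72 and 8.48 in wild type. Bcl10 was lower in MyD88 KO than in wild type (-0.45, adjusted p = 0.00892) and than in TRIF KO (-0.41, adjusted p = 0.0293). The call of Tank at 4 h held on leaving out each array, and that of Bcl10 in MyD88 KO against wild type was lost without the wild-type 4 h array. The calls of Bcl10 and Tbk1 at 4 h were each lost without any 1 of 4 arrays, and that of Bcl10 against TRIF KO without any 1 of 5. At 1 h and for TRIF KO against wild type limma called 0 of the 10, with 0 and 1 at an unadjusted p under 0.05.

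Tristetraprolin is phosphorylated by MK2 (Mapkapk2) below the kinase p38 (Mapk14), which favours its stable but inactive form, and DUSP1 turns p38 off. Dusp1 was higher at 1 h (1.15, limma, adjusted p = 0.0006), with 9.47, 10.3 and 9.76 in MyD88 KO cells, 9.74, 10.9 and 10.1 in TRIF KO cells, and 9.74, 11.2 and 10.1 in wild type at 0, 1 and 4 h. Mapkapk2 was higher at 4 h (1.03, adjusted p = 1.12e-05), and Mapk14 too (0.35, adjusted p = 0.019). Both Dusp1 (-0.50, adjusted p = 0.0168) and Mapkapk2 (-0.36, adjusted p = 0.0141) were lower in MyD88 KO than in wild type, 2 of 9 tested genes. Among all genes tested 2.48% were lower there. Akt1, which also phosphorylates proteins of this family, gave 0.19 in that comparison (adjusted p = 0.112). TRIF KO against wild type and MyD88 KO against TRIF KO had 0 calls by limma, with 1 and 2 at an unadjusted p under 0.05. The calls of Dusp1 at 1 h and Mapkapk2 at 4 h held on leaving out each array, and that of Dusp1 was lost without a genotype term. Those against wild type were lost without the wild-type or the MyD88 KO array at 1 h for Dusp1, and without either array at 4 h for Mapkapk2, and that of Mapk14 without any 1 of 4 arrays (wild type or MyD88 KO at 0 h or 4 h).

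Transcripts known as targets of the 2 kinds of protein were on the array as well, and several rose with LPS and were lower in MyD88 KO. Of 13 listed as cleaved through Regnase-1, 10 were tested. Nfkbiz rose at 1 h (2.86, limma, adjusted p = 0.00332) and at 4 h (1.76, adjusted p = 0.00583), and Il1b (1.70, adjusted p = 0.0209) and the cyclooxygenase Ptgs2 (1.43, adjusted p = 0.0236) rose at 4 h. Il6 read 4.20, 3.90 and 3.98 at 0, 1 and 4 h in MyD88 KO cells, 3.91, 4.29 and 4.32 in TRIF KO cells, and 3.98, 4.47 and 6.96 in wild type, so that the wild-type 4 h array alone stood above log2 = 6 (4 h adjusted p = 0.179). In MyD88 KO against wild type 4 were lower, namely Nfkbiz (-2.43, adjusted p = 0.00142), Il1b (-2.08, adjusted p = 0.0116), Lcn2, lipocalin (-1.34, adjusted p = 1.57e-05), and the NF-kB subunit Rel (-0.51, adjusted p = 0.0453). Among all genes tested 4.38% were higher at 4 h and 2.48% were lower in MyD88 KO than in wild type. Lcn2 was also lower in TRIF KO (-0.72, adjusted p = 0.00273), a call that was lost with values below log2 = 6 raised to 6 (-0.49, adjusted p = 0.0857). Against TRIF KO, MyD88 KO was lower for Nfkbiz (-2.27, adjusted p = 0.00417). Lcn2 lay below log2 = 6 on every array of both knockouts, so the 2 knockouts are not compared for it. At 4 h 6 of the 10 genes were at least 2-fold lower in MyD88 KO than in wild type, as were 0.533% of tested probe sets, and 4 were in TRIF KO, where 0.287% were, namely Il6 (-2.64), Ptgs2 (-1.75), Il1b (-1.46) and Lcn2 (-1.01), with 1 array per group. Lcn2, Il6 and Il12b reached log2 = 6 in wild type alone, so the filter kept them because they were high there. Ptgs2 reached it only on stimulated arrays of TRIF KO and wild type, so the filter kept it through those arrays. Its call at 4 h was also lost with values below log2 = 6 raised to 6. The counts of lower genes, the call of Ptgs2 at 4 h and the calls of Lcn2 against wild type are therefore no support for a shift of the list. The calls of Nfkbiz at 4 h and in both comparisons of MyD88 KO, and of Lcn2 in both comparisons with wild type, held on leaving out each array. The call of Nfkbiz at 4 h was lost with values raised to 6, with a trended and robust prior, without a genotype term and without the wild-type arrays. Its call in MyD88 KO against wild type was lost with that prior and without a time term. Against TRIF KO it was lost in these settings and with values raised to 6. The other calls of the list were lost without at least 2 arrays, each left out alone.

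Of 15 transcripts listed as bound by tristetraprolin, 13 were tested, and Il1b and Il6 are in both lists. At 1 h the chemokine Cxcl2 (2.97, limma, adjusted p = 0.000167), Tnf (2.22, adjusted p = 0.0068) and the early response gene Ier3 (1.12, adjusted p = 0.000544) rose, and at 4 h 6 genes did, from 0.69 for Ier3 to 2.71 for Cxcl2. Among all genes tested 0.259% were higher at 1 h and 4.38% at 4 h. Tnf read 8.82, 10.1 and 9.61 at 0, 1 and 4 h in MyD88 KO cells, 9.66, 11.9 and 11.7 in TRIF KO cells, and 9.54, 12.7 and 12.5 in wild type. In MyD88 KO against wild type 6 were lower, from Ier3 (-0.71, adjusted p = 0.0017) to Cxcl2 (-2.52, adjusted p = 5.96e-05) with Tnf, Il1b, Cxcl1 and Il1a between, and the chemokine Ccl2 was higher (0.64, adjusted p = 0.00988). The shares over all genes tested were 2.48% lower and 4.09% higher. In TRIF KO against wild type limma called Plaur, the urokinase receptor, higher (0.38, adjusted p = 0.0237), and none lower, over all times. At 4 h alone 4 of the 13 were at least 2-fold lower in TRIF KO than in wild type, Il6 (-2.64), Il1b (-1.46), Cxcl1 (-1.17) and Il1a (-1.02), and 7 were in MyD88 KO. The shares of tested probe sets that much lower were 0.287% in TRIF KO and 0.533% in MyD88 KO. The differences of these genes rest on 1 array per group and were not tested, and Il6 reached log2 = 6 in wild type alone. Cxcl1 lay below log2 = 6 on every unstimulated array and in MyD88 KO at 4 h, so the filter kept it through its stimulated levels. Its calls at 4 h and in MyD88 KO against wild type were lost with values below log2 = 6 raised to 6. They were also lost with a trended and robust prior. The calls of Cxcl1 and its part in these counts are therefore no support for a shift of the list. Against TRIF KO, MyD88 KO was lower for 3, Cxcl2 (-2.22), Tnf (-1.61) and Ier3 (-1.09), and higher for Ccl2 (0.55). In this comparison 1.24% of all genes tested were lower and 0.828% higher. Leaving out each array, the calls of Cxcl2 and Ier3 held at both times and in both comparisons of MyD88 KO, as did those of Tnf at 4 h and in MyD88 KO against wild type. With a trended and robust prior, those calls of Tnf were lost, and so were those of Cxcl2 at 1 h and against TRIF KO. All calls of Cxcl2, Ier3 and Tnf were lost without a genotype term (times) or without a time term (genotypes). The call of Tnf at 1 h was lost without the wild-type 1 h array or the TRIF KO array at 0 h or 1 h, and that against TRIF KO without the MyD88 KO 1 h array or any 1 of the 3 TRIF KO arrays (adjusted p up to 0.0814). At 4 h the call of Il1b was lost without any 1 of 5 arrays, that of Il1a without any 1 of 4 and that of Cxcl1 without either of 2. In MyD88 KO against wild type the calls of Cxcl1 and Il1a were lost without any 1 of 4 arrays (wild type or MyD88 KO at 1 h or 4 h), that of Il1b without the wild-type array at 1 h or 4 h, and that of Ccl2 without the wild-type 1 h array. The call of Ccl2 against TRIF KO was lost without any 1 of 6 arrays, and that of Plaur without the wild-type 1 h array or any TRIF KO array. Total level is what an array reads, so synthesis and decay of these transcripts cannot be told apart.

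**Figure D5:**
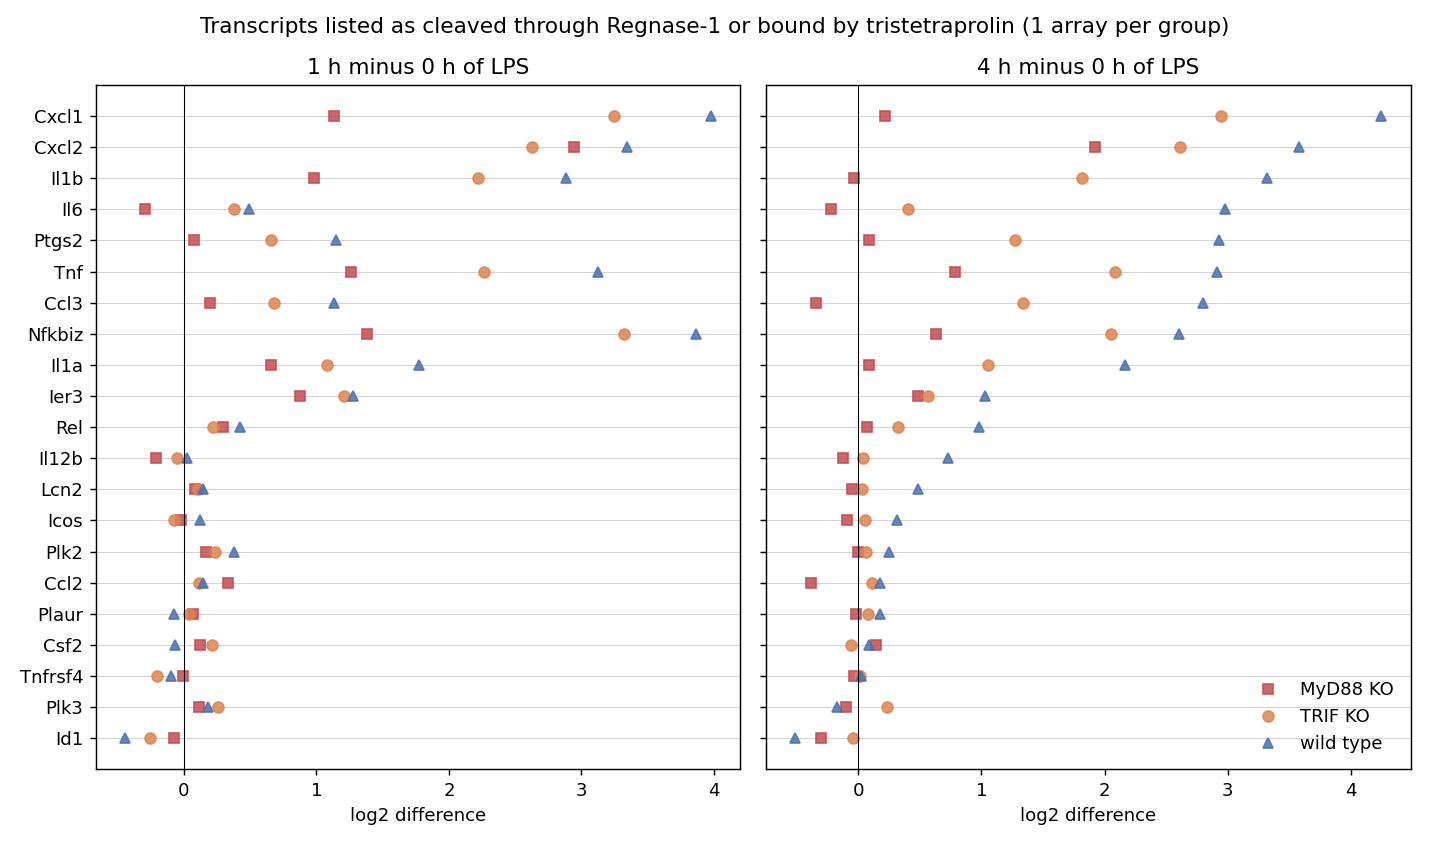
Log2 difference from the unstimulated array of the same genotype (horizontal axis) at 1 h (left) and 4 h (right) of LPS for the tested transcripts listed as cleaved through Regnase-1 or bound by tristetraprolin, with 1 array per point. At 4 h the squares of MyD88 KO lie left of the wild-type triangles for Cxcl1, Cxcl2, Il1b, Tnf and Nfkbiz, with the circles of TRIF KO between.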

How the data were processed

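Biotin-labelled cRNA made from total RNA was measured on 9 Affymetrix arrays, 1 per genotype and time. The authors deposited log2 values, and RMA is the method that the submitters' processing notes name, without a version. Values were used as deposited. Probe sets took gene symbols from the platform's annotation, with symbols updated through RefSeq (20393 of 22690 had 1 symbol, 20364 of these in RefSeq).

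Probe sets that reached log2 = 6 on at least 1 array (16712, without 64 control probe sets) were fitted with limma 3.58.1 in R 4.3.3 on genotype and time. This left 4 residual degrees of freedom and a prior of 7.53. Two-sided p-values were adjusted by Benjamini and Hochberg's method over all tested probe sets, with a threshold of 0.05. The fit was also run on simulated data with independent noise and no response that differed between genotypes. That run cannot check how such responses, or arrays that are not independent, act on the p-values. Since no source ties the arrays to separate animals, the p-values reflect only how these arrays vary, and that variation may be technical. With 1 array per group, the residual error also takes in responses that differ between genotypes, which enlarge it. Depth does not apply to arrays, and their number limits the precision. Differences of 2 arrays have no test and were counted at 2-fold.

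Members and lists were chosen with earlier results of these data known. The text names all member probe sets, the 5 most correlated genes of each member, the 4 genes of each list with the largest range and those past the threshold. A list gene took its probe set with the highest mean. No genome build is named for the values. Promoters are RefSeq sequences of GRCm38.p6 and were matched for 3 of 4 genes. Alternatives changed the filter, the floor, the scaling, the variance prior, the model terms and the arrays used. Figures were drawn with matplotlib 3.10.9.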

Additional observations from a re-analysis of the deposited data

Results flagged for a closer look

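Inductions of opposite sign in 2 genotypes were found in 10 of 42 pairs of genotypes compared over the 7 probe sets at 1 h and 4 h. Each rests on 1 array per group and the difference was not tested. In Zfp36l2 at 1 h the value in MyD88 KO was below 0 and those in TRIF KO and wild type were above it. On 1437626_at the induction in MyD88 KO was -0.10, which was -0.527 relative to wild type and -0.339 relative to TRIF KO. On 1451034_at it was -0.18, which was -0.534 relative to wild type and -0.338 relative to TRIF KO. On 1439054_at, the probe set of small range, the differences at 1 h were -0.072 for MyD88 KO minus wild type and -0.153 for MyD88 KO minus TRIF KO, and at 4 h they were -0.363 for MyD88 KO minus wild type and -0.198 for TRIF KO minus wild type. Zfp36l1 on 1422528_a_at differed at 4 h by -0.246 for TRIF KO minus wild type and by 0.096 for MyD88 KO minus TRIF KO.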

How the results depend on the processing

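No paired analysis was possible by replicate number because each group has 1 array, while the fit on genotype and time itself compares times within genotypes and genotypes within times. Counts here are of the 7 member probe sets past the threshold. At 1 h (1 called) the count was 0 with values below log2 = 6 raised to 6, 0 without a genotype term, 0 without the wild-type arrays and 2 without the MyD88 KO arrays. At 4 h (2 called) it was 1 with values raised to 6, 1 with a trended and robust prior, 0 without a genotype term, 0 without the wild-type or the TRIF KO arrays and 4 without the MyD88 KO arrays. For MyD88 KO against wild type (1 called) it was 0 with the trended and robust prior, 0 without a time term and 2 with stimulated arrays only. For TRIF KO against wild type (0 called) it was 1 with 1 probe set per gene and 1 with the trended and robust prior. For MyD88 KO against TRIF KO (2 called) it was 1 with values raised to 6, 1 with the trended and robust prior, 0 without a time term and 1 with stimulated arrays only. Leaving out each array in turn gave 0 to 2 at 1 h, 0 to 4 at 4 h, 0 to 2 for MyD88 KO against wild type, 0 to 1 for TRIF KO against wild type and 0 to 2 for MyD88 KO against TRIF KO. Of the 2 knockout differences of 2-fold or more, 1 was left after centring on the reference transcripts, and Spearman's correlation kept 13 of the 20 closest genes. The cause of these changes was not tested.

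Estimates that changed sign were small. At 1 h, 1439054_at gave -0.016 without the TRIF KO arrays and 1451034_at -0.011 without the wild-type arrays. At 4 h, 1422528_a_at gave -0.006 and 1439054_at -0.088 without the wild-type arrays, and 1439054_at gave -0.007 after centring. For MyD88 KO against wild type, 1422528_a_at gave -0.009 with values raised to 6, and with stimulated arrays only 1450644_at gave 0.007, 1422528_a_at -0.07, 1439054_at -0.063 and 1451034_at -0.067. Leaving out each array, 1439054_at ranged from -0.023 to 0.086 at 1 h, -0.088 to 0.075 at 4 h, -0.053 to 0.104 for MyD88 KO and -0.016 to 0.126 for TRIF KO against wild type, and -0.085 to 0.047 for MyD88 KO against TRIF KO. In the same order without 4 h, 1451034_at ranged from -0.016 to 0.261, -0.068 to 0.166, -0.005 to 0.192 and -0.133 to 0.1. The probe set 1422528_a_at ranged from -0.004 to 0.137 at 4 h and -0.054 to 0.107 for MyD88 KO against wild type, where 1450644_at ranged from -0.092 to 0.032. For TRIF KO against wild type Zc3h12a ranged from -0.239 to 0.174 and Zfp36 from -0.133 to 0.077, and 1437626_at from -0.087 to 0.25 for MyD88 KO against TRIF KO.

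Over all probe sets the 37 calls at 1 h became 7 with values raised to 6, 1 without a genotype term, 14 without the wild-type arrays, 87 without the MyD88 KO arrays and 9 to 54 leaving out each array. The 1762 at 4 h became 483 without a genotype term, 842 without the wild-type arrays, 792 without the TRIF KO arrays and 814 to 1992 leaving out each array. The 1094 for MyD88 KO against wild type became 725 with 1 probe set per gene, 712 with values raised to 6, 146 without a time term and 457 to 1406 leaving out each array. The 249 for TRIF KO against wild type became 160, 129, 95 and 90 to 380 in the same settings. The 345 for MyD88 KO against TRIF KO became 177 with values raised to 6, 55 without a time term, 204 with stimulated arrays only and 121 to 450 leaving out each array. Of 48 calls over 25 genes of the lists, 20 held on leaving out each array and 3 under every alternative, those of Tank and Mapkapk2 at 4 h and of Lcn2 in MyD88 KO against wild type. Lcn2 reached log2 = 6 in wild type alone, so the filter kept it because it was high there, and its call is no support.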
